A study of Mus musculus with 6 samples.

Results

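Zinc-finger regulators are proteins that fold short stretches of chain around a zinc ion, most often the C2H2 finger held by 2 cysteines and 2 histidines. The 28 genes described here were taken by their symbols (those that begin with Zfp, Zbtb, Zkscan, Zscan, Zfhx, Zc3h, Zmym, Zmiz, Znf, Zfy, Zik, Klf or Zeb) from the 1285 genes of the authors' deposited table. The cells profiled were mesenchymal stem and progenitor cells of adult mouse marrow, a stromal population of the blood stem cell niche. Each library was made from 2000 cells sorted as CD45-, Ter119-, CD31- and Nes-GFP+, so every group carries the Nes-GFP reporter, a green protein under nestin sequences. The 3 control libraries came from mice labelled control, whose alleles are not described further. The other 3 came from Snai2-/- littermates, and all mice were 8 weeks old. Snai2 encodes Slug, itself a C2H2 repressor, and its allele is not described beyond the genotype. Values of single libraries were not analysed here, so each gene has 1 mean per group, with no spread and no sample-level test.

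In a cell, C2H2 proteins read DNA with tandem fingers, and the part ahead of the fingers sets what the protein recruits. A KRAB domain binds the co-repressor Trim28 and leads to histone methylation, often at transposable elements. A BTB domain pairs the protein with itself and with co-repressors such as Ncor1 and Bcor, and a SCAN domain pairs SCAN proteins with each other. Krüppel-like factors bind GC-rich and CACCC sequences, and several of them set the balance of stromal and fat-cell differentiation.

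The members were selected on their symbol and, through the table, on their p, since the authors' deposited table lists only genes with an unadjusted p below 0.05. Therefore p and fold describe them and test nothing about them. The table's FDR values, which are p adjusted for the number of genes, correspond to 16718 genes tested. Of these, 7.69% were listed, and the 28 members belong to 558 symbols of the same spelling in the RefSeq gene table, a share of 5.02%. These percentages have different bases, since which of the 558 symbols were tested is not known. None of the 28 reached an FDR of 0.05, which 0 of all 16718 genes reached, and the lowest FDR among them was 0.303 in the authors' deposited table. At an FDR of 0.1 the share of all genes was 0.00598%, and again no member reached it. Their p ran from 9.23e-04 for Klf7 to 0.0499 for Zfp958, the member nearest the limit. Genes beyond that limit are not in the table.

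Most of the 28 listed zinc-finger genes had a lower mean without Snai2. Of the 28, 23 were lower and 5 were higher in Snai2-/- cells, out of 558 symbols of these families. The rest of the 558 have no values here, so the direction of the families as a whole is not known. Of all genes tested, 3.91% were listed as lower and 3.77% as higher, so that 50.9% of the listed genes were lower. The median log2 ratio was -0.61 for the 28 and -0.36 for all listed genes. Among all listed genes, 654 were lower, and 237 of these were lower by at least 2-fold. The median log2 ratio of the lower genes was -0.67 for the members and -0.81 for all listed genes. Of the 23 lower members, 20 were lower by less than 2-fold, with log2 ratios from -0.85 to -0.48. The 5 higher members were all higher by more than 2-fold, with log2 ratios from 1.49 to 5.16. In all, 8 members differed at least 2-fold, against 45.9% of listed genes.

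**Figure D1:**
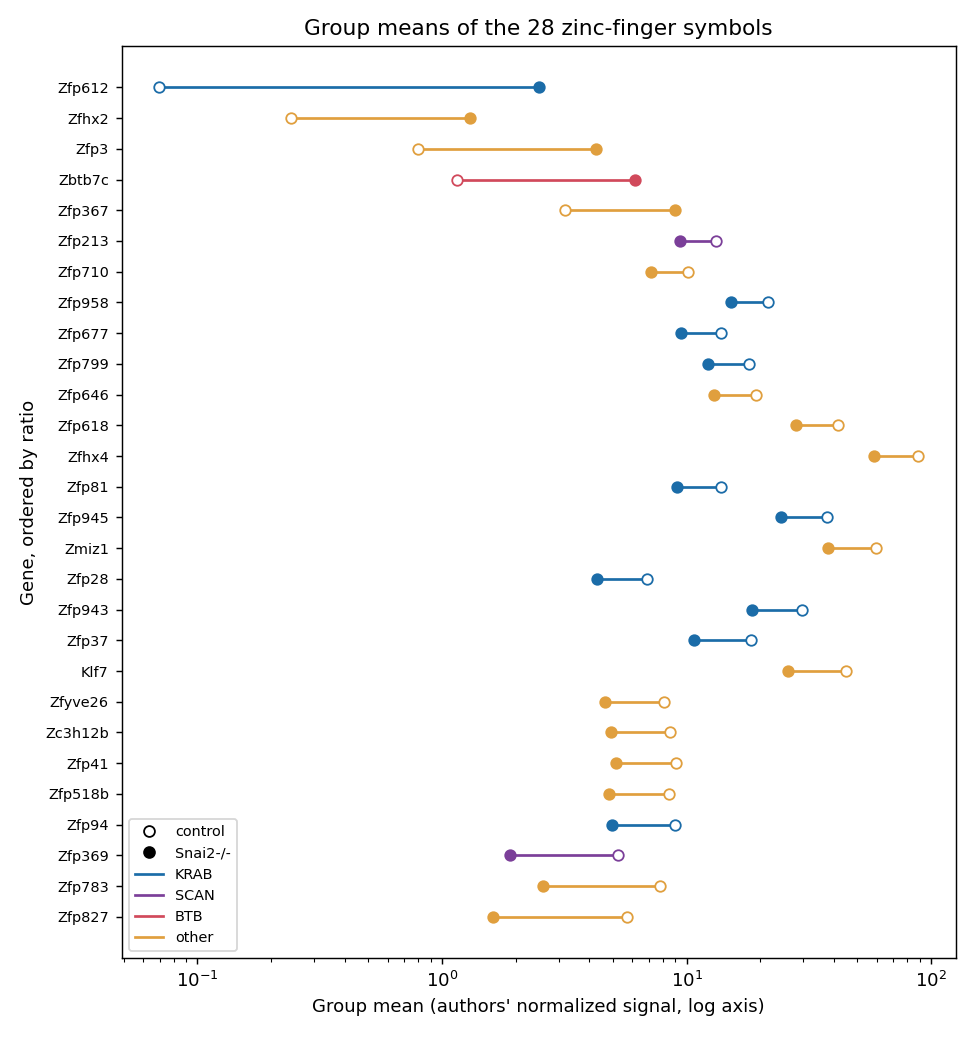
Mean of each of the 28 genes in control (open circles) and Snai2-/- cells (filled circles), on a log axis in the authors' normalized signal, with 1 mean per group and no error. Each line joins the 2 means of a gene and is coloured by class. The 5 genes at the top were higher in Snai2-/- cells and the other 23 were lower.

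Zfp783 aside, the class of each protein was read from the longest coding sequence of its gene in GENCODE M21. A KRAB domain stood ahead of the fingers in 12 members, 2 of which also held a SCAN domain and are counted here as SCAN, leaving 10 in the KRAB class. The BTB class had 1 member and the other class 15. The KRAB class divided into 9 lower and 1 higher, SCAN into 2 lower and 0 higher, BTB into 0 lower and 1 higher, and the other class into 12 lower and 3 higher. The median log2 ratio was -0.61 in the KRAB class and -0.66 in the other class. Of protein-coding RefSeq genes with a class, 10 of 230 KRAB (4.35%), 2 of 39 SCAN (5.13%) and 1 of 42 BTB genes (2.38%) were listed. In the other class it was 14 of 210 (6.67%), without the noncoding Zfp783. Over all 521 such genes the share was 5.18%, and 7.69% of all tested genes were listed. Differences between the classes were not tested.

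**Figure D2:**
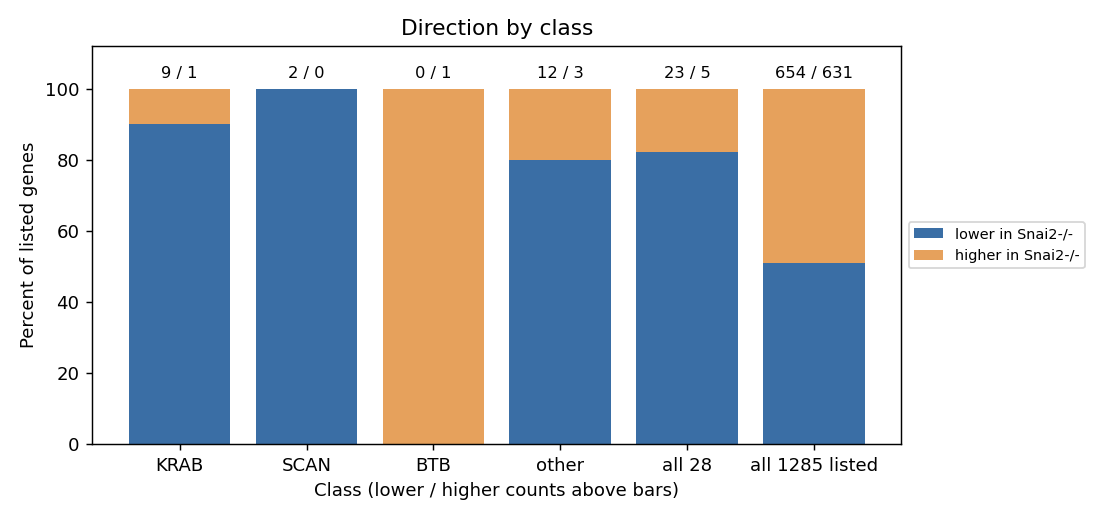
Percent of listed genes that were lower (blue) or higher (orange) in Snai2-/- cells, by class, with the counts above each bar as lower / higher. The members are lower in 23 of 28 cases, against 654 of all 1285 listed genes.

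The label of the set does not hold for every symbol. Zfyve26, which encodes a FYVE-domain protein of lysosome and autophagy function, enters only because its symbol begins with Zfy, and its protein holds 0 C2H2 matches. Zfp783 is annotated as a long noncoding RNA in RefSeq, so no protein was read for it and it is counted in the other class. Zmiz1 and Zc3h12b also have no C2H2 match, Zmiz1 because it carries a MIZ-type finger and Zc3h12b because it belongs to the CCCH-finger ribonucleases of the Zc3h12 family. The other 24 members hold at least 1 match, and 19 of them were lower and 5 higher.

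The KRAB proteins hold long runs of fingers. Their count of C2H2 matches ranged from 11 to 18 with a median of 13.5, close to the median of 12 over the 233 KRAB proteins that the symbols could take. Among the 14 proteins of the other class the count ranged from 0 to 27, with a median of 4. The 2 SCAN members had 5 each.

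**Figure D3:**
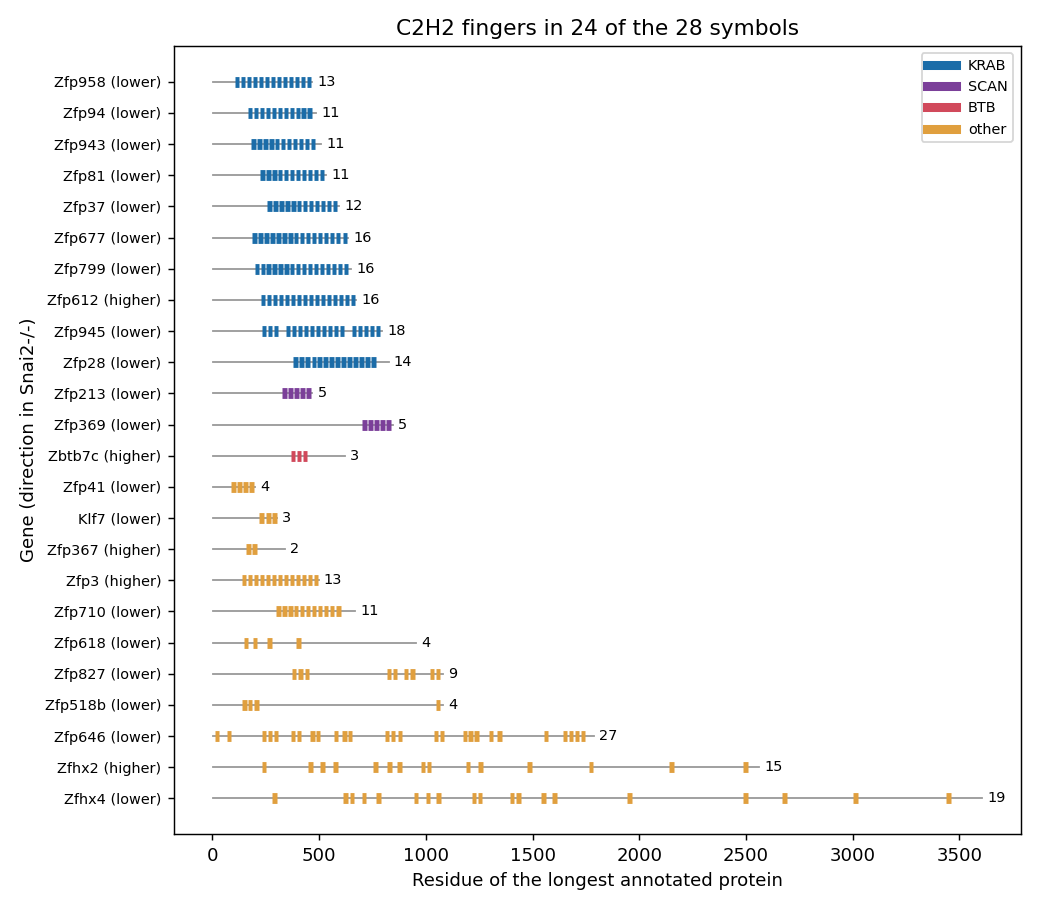
Positions of C2H2 matches (coloured blocks) along the longest annotated protein (grey line, in residues) for the 24 members that hold any, with the number of matches at the right and the direction in Snai2-/- cells beside each name. KRAB members carry 11 to 18 fingers, mostly in 1 run, while in the large proteins Zfp646, Zfhx2 and Zfhx4 the matches are scattered.

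Among the KRAB members, Zfp945 had the highest signal. The signal is not known to be per length, so its order does not rank the genes by number of transcripts. The authors' deposited table gave it a mean of 24.4 without Snai2 and 37.6 in controls, 1.54 times lower. For Zfp943 the authors' deposited table gave 18.5 without Snai2 and 29.6 in controls, and for Zfp958 it gave 15.2 and 21.6. Zfp94 (GRCm38 chromosome 7, 24301704 to 24316698) had the lowest ratio of the class. Its deposited means in the authors' table were 4.98 without Snai2 and 8.98 in controls, 1.80 times lower. The remaining lower KRAB members were also lower by less than 2-fold. Zfp37 stood at 10.7 without Snai2 and 18.3 in controls, and Zfp28 at 4.32 and 6.86, per the authors' deposited table. In the same order of groups, the authors' deposited table put Zfp799 at 12.3 and 17.99, Zfp81 at 9.11 and 13.9, and Zfp677 at 9.48 and 13.8.

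Zfp612 (chromosome 8, 110079705 to 110092753) was the exception in the KRAB class. The authors' deposited table gave it a mean of 2.50 without Snai2 and 0.0700 in controls, a log2 ratio of 5.16 at FDR 0.473. The control mean is far below 1, so the ratio rests on a very small denominator. How many of the Snai2-/- libraries carried the signal is not known.

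Both SCAN members also carry KRAB. Zfp369, known as Nrif2 and related to a protein that binds the neurotrophin receptor p75, stood at 1.90 without Snai2 and 5.23 in controls per the authors' deposited table, 2.76 times lower. Zfp213 stood at 9.43 and 13.2, again per the authors' deposited table. Of the families named for this domain, 0 of 11 Zkscan and 0 of 16 Zscan genes of RefSeq were listed. The share over all 529 protein-coding genes with the symbols of the rule was 5.10%, so counts of 0 in families this small do not set them apart.

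Zbtb7c, the BTB member and a relative of the repressor Zbtb7a, was higher. In the authors' deposited table its mean was 6.17 without Snai2 and 1.16 in controls, 5.34 times higher, with an unadjusted p of 0.00269 and an FDR of 0.356. It was the 1 listed gene of 41 Zbtb symbols in RefSeq (2.44%, against 5.10% of all protein-coding genes with the symbols of the rule). By p it came next after Klf7 among the members.

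In the other class, the members with the highest signal were all lower. Klf7, a Krüppel-like factor (chromosome 1, 64029448 to 64122345), had the smallest p of the members and ranked 51 by p among listed genes. The authors' deposited table gave it a mean of 26.1 without Snai2 and 44.99 in controls, 1.72 times lower. It was the 1 listed gene of 17 Klf symbols (5.88%, against the same 5.10%). Neither of the 2 Zeb genes was listed, which encode repressors of the epithelial program that bind the same E-boxes as Snai2.

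Zmiz1 is a PIAS-like co-activator that works with Notch1 and the androgen receptor (chromosome 14, 25457875 to 25666743). Its means per the authors' deposited table were 37.7 without Snai2 and 59.6 in controls, 1.58 times lower. Zfhx4, a giant protein with homeodomains and zinc fingers (chromosome 3, 5218218 to 5415861), stood at 58.2 and 88.1 per the authors' deposited table, 1.51 times lower. Zfp618, a reader of hydroxymethylated DNA, stood at 28.01 and 41.8 per the authors' deposited table.

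Zfhx2, a homeodomain relative of Zfhx4, was higher. For this gene the authors' deposited table gave 1.30 without Snai2 and 0.241 in controls, 5.39 times higher. Its control mean is below 1, so the ratio rests on a very small denominator. So 2 of the 3 Zfhx genes were listed, in opposite directions, with that limit on Zfhx2. The share over all protein-coding genes with the symbols of the rule was 5.10%, and a family of 3 is too small to be set apart by its count. Zfp3 and Zfp367 were the remaining higher members. Zfp3 stood at 4.28 without Snai2 and 0.799 in controls per the authors' deposited table, 5.36 times higher, again over a control mean below 1. Zfp367, a factor with 2 C2H2 matches, stood at 8.95 and 3.19 per the authors' deposited table, 2.80 times higher.

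Of the lower members of the other class, Zfp827, known to bring the NuRD complex to telomeres, had the lowest ratio. The authors' deposited table gave it 1.61 without Snai2 and 5.71 in controls, 3.54 times lower. Zfp783 followed at 2.60 and 7.80 per the authors' deposited table, a ratio of 0.334. Zc3h12b stood at 4.90 and 8.53 and Zfyve26 at 4.65 and 8.08 per the authors' deposited table. The other 4, Zfp41, Zfp518b, Zfp646 and Zfp710, were between 1.42 and 1.76 times lower there.

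Among the listed members, direction went with signal, and this was not tested. The listed genes were divided by total signal into 4 groups of equal size. Of the 7 members in the group with the lowest signal, 4 were higher and 3 lower. Of those 4, Zfp612, Zfhx2 and Zfp3 had a control mean below 1, so their signal lies mainly in the Snai2-/- group. Among all listed genes of that group, 158 were higher and 164 lower. Of the 21 members in the other 3 groups, 1 was higher (Zfp367) and 20 were lower. Among the other listed genes of those 3 groups, 472 were higher and 470 lower. Every member that differed at least 2-fold had a total signal of 36.4 or less. In the group with the lowest signal, 293 of 322 listed genes differed at least 2-fold, against 297 of the 963 in the other 3 groups.

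**Figure D4:**
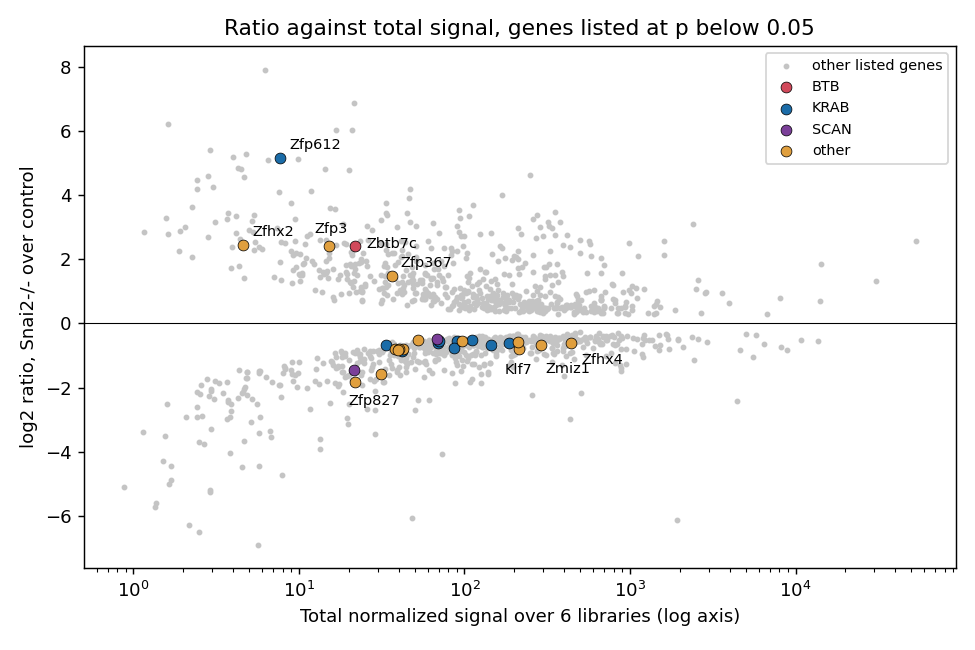
Log2 ratio of Snai2-/- over control against the total normalized signal over the 6 libraries (log axis), for the listed genes (grey, without 7 genes that have a mean of 0.0001 in 1 group) and the 28 members (coloured by class). The members with high signal lie in a band just under 0, and the 5 members above 0 have a total signal of 36.4 or less.

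The members are spread over 15 chromosomes. None lies on chromosome 16, which carries Snai2 and only 11 symbols of these families. Chromosome 17 holds 6 members, out of 52 symbols of these families there (11.5%, against 5.02% of all 558 symbols). All 6 were lower, in a set where 23 of 28 were. Zfp677, Zfp943, Zfp945 and Zfp213 lie within 2.18 Mb (21383707 to 23564226), where 17 of the 21 symbols of these families were not listed. Zfp799 and Zfp81 lie within 0.543 Mb (32815449 to 33358896), where 8 of 10 were not listed. Chromosome 7 holds 4 members, all lower, in the same set where 23 of 28 were. The symbols of these families there were not counted, so that number has no share beside it and cannot be read as high or low. Differences between chromosomes were not tested.

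KRAB genes in such clusters are related in sequence, so the uniqueness of each transcript was computed. The share of 50-base stretches of the longest transcript that also occur in a transcript of another gene was under 5% in 23 members. It was 52.3% for Zfp213, 40.8% for Klf7 and 22.6% for Zfhx2, in each case mainly through a gene on the opposite strand (Gm26695, Gm26649 and Zfhx2os). The libraries do not mark the strand, so reads from the shared stretches of these 3 genes cannot be told from those of their partners, which makes their values less certain. For Zfp28 and Zfp367 the shares were 16.4% and 15.9%.

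Snai2 and the other Snail proteins bind the E-box CAGGTG, or CACCTG on the other strand. The RefSeq promoter windows, from 250 bases before to 50 bases after a start in GRCm38.p6, were searched for these letters, and 22 of the 28 members had at least 1 window. The letters stood in the windows of 5 of the 22 genes, which is 5 of 26 windows or 19.2%, against 14.1% of the 555 windows of all genes these symbols could take and 20.2% of all windows of that length. They stood in 2 of the 3 higher genes with a window (Zfp3 and Zfp367) and in 3 of the 19 lower ones (Zfp799, Zfp827 and Zfyve26). Among all listed genes with a window, they stood in 143 of 469 higher genes and in 89 of 472 lower ones. By window, the share for members was 50% for those higher and 13.6% for those lower. For all listed genes it was 25.9% and 15.9%. Zfp367 has 2 windows, and its match stands in the one at a start inside the gene, while the one at the annotated 5′ end of the gene holds 0. The match of Zfp827 also stands at a start inside the gene. Its annotated 5′ end is at 79027486, and the upstream part of its window ends at 79028436. The start used for Zfyve26 lies slightly inside its gene. A match is a description of these letters and not a binding site.

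The upstream sites are shown so that the surroundings of the E-box can be compared between higher and lower genes. They run 5′ to 3′ on the strand of the gene, with the E-box in capitals. The position is that of its first base counted back from the start. A further match of Zfyve26, at -5, spans the start and is not shown.
Zfp3, higher, chr11:70764368-70764397, plus strand, at -67: gggctcgctggcCACCTGttcctcccgcga
Zfp367, higher, chr13:64152374-64152403, minus strand, at -18: gtctgagggcagCAGGTGcagcggggtgat
Zfp799, lower, chr17:32830405-32830434, minus strand, at -161: ccttggtggggcCAGGTGctctccagagta
Zfp827, lower, chr8:79028413-79028436, plus strand, at -12: tcggggacaagcCAGGTGcacgac
Zfyve26, lower, chr12:79296397-79296426, minus strand, at -132: ccccgtagcaatCAGGTGgcatcacgtgat

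The promoters of a higher and a lower gene that both hold the E-box are shown whole as examples, chosen after their sequences were seen. The windows of listed genes had a median of 60.7% G and C for the higher and 59.7% for the lower genes, and Zfp799 has the lowest value among the members' windows. The 250 bases before the start of Zfp3, whose window is 68.3% G and C, and of Zfp799, whose window is 47.0%, are shown with the E-box in capitals.
Zfp3, chr11:70764197-70764446, plus strand: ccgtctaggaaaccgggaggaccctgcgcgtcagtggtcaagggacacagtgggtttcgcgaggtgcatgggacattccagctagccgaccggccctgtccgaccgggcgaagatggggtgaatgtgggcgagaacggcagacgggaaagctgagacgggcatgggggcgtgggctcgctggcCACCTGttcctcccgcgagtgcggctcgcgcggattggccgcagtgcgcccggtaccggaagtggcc
Zfp799, chr17:32830262-32830511, minus strand: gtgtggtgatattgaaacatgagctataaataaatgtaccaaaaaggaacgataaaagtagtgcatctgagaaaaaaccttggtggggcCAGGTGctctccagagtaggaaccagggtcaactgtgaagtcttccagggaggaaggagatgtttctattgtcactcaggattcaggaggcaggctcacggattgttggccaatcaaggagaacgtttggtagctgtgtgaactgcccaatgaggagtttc

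Lists of partner genes were set beside the 7.69% of all tested genes that were listed, and no list is singled out by its count. Of 18 genes of the KRAB co-repressor machinery, which includes Trim28 and Setdb1, 1 was listed, Atf7ip, a partner of Setdb1. It stood at 30.2 without Snai2 and 43.6 in controls per the authors' deposited table. Of 18 BTB co-repressor genes 1 was listed, the BTB zinc-finger repressor Bcl6, at 39.7 and 55.5 per the authors' deposited table. Of 16 genes of the Snail family and its co-repressors 1 was listed, Snai2 itself, at 9.20 and 636 per the authors' deposited table. Of 10 PIAS and Zmiz partner genes 0 were listed. Of 22 genes of RNA decay that work with CCCH proteins 2 were listed. The roquin gene Rc3h1 stood at 14.2 and 21.3, and the kinase gene Mapkapk3 at 65.0 and 21.6, per the authors' deposited table.

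Of 72 zinc-finger transcription factor genes outside the symbol rule 3 were listed, beside 7.69% of all tested genes. All 3 were lower, beside 50.9% of all listed genes, and the rest of the 72 have no values here. Sp4, a GC-box factor, stood at 4.55 without Snai2 and 12.2 in controls per the authors' deposited table, 2.68 times lower. Ikzf4, an Ikaros-family factor, stood at 4.20 and 10.6 and Rreb1 at 16.05 and 26.6 per the authors' deposited table. Zfat, a further C2H2 gene noticed after its values were seen, stood at 1.11 and 3.82 per the authors' deposited table.

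These are bulk libraries, in which fewer cells of a type and less RNA per cell cannot be told apart. None of 6 marker genes of mesenchymal stem and progenitor cells was listed, so their levels were not analysed here. Beside the counts that follow, 7.69% of all tested genes were listed, and 50.9% of the listed genes were lower. Of 6 osteoblast markers 4 were listed and 4 were higher. The summed means of the listed ones, without Bglap and Sp7, were 16675 in Snai2-/- and 2882 in control cells. Most of that sum is Col1a1, at 15244 without Snai2 and 2546 in controls per the authors' deposited table. Of 8 neutrophil and monocyte markers 5 were listed and 5 were higher. The summed means of the listed ones, without S100a8, Lyz2 and Csf1r, were 683.6 against 158.8. Since only genes with a p below 0.05 are listed, such sums do not describe the whole marker lists. Of 2 general leukocyte markers 1 was listed (Cd48) and of 3 erythroid markers 1 (Car1), both higher, while 0 of 3 lymphocyte markers were listed. Of 4 endothelial markers 2 were listed, Flt4 higher, at 6.85 without Snai2 and 3.28 in controls, and Vwf lower, at 1.38 and 23.05, per the authors' deposited table. The part of these cells in the lower zinc-finger means was not tested.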

How the data were processed

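The deposited file compares mutant with wildtype, taken here as Snai2-/- and control since the labels hold no further group. Each gene has a p-value, a step-up FDR, a ratio and a signed fold change, per the file headers. It also has 1 least-squares mean per group, which the authors deposited as a normalized signal of unstated unit. Trim Galore, HTSeq, edgeR 3.12.0 and the mm10 build are listed in the submitters' processing notes without roles. SMART-Seq v4 and Nextera XT libraries, per the labels' protocols, do not mark the strand. Depth per library is unknown, so no counting error is given. Whether libraries stem from separate animals is not stated in the labels, and the deposited p-values may reflect technical spread.

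The members and gene lists were chosen with earlier results of these data known. The count model planned in case library values were present was not run, and no test was made. The number of tests was recovered from the deposited FDR, p and rank, a step that gave the true number in 10 of 10 simulated tables. Proteins were translated from GENCODE M21 (GRCm38). C2H2 fingers were found by the spacing of cysteines and histidines. BTB and SCAN domains were called by likeness (BLAST 2.17.0, E-value at most 1e-04, 50 residues) to at least 3 Zbtb or Zscan proteins, and KRAB by likeness over 25 residues to at least 3 KRAB stretches. Coordinates and promoters are from RefSeq GRCm38.p6. In each class, the 5 members with the smallest p, the 3 with the largest ratios and the 3 with the highest signal were to be named, with all Klf, Zeb, Zfhx, Zmiz, Zmym, Zc3h and Zfp36 members. The other members were named besides, to account for all 28. Python 3.11.15, pandas 2.3.3, numpy 2.4.6, Biopython 1.88 and matplotlib 3.10.9 were used.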

Additional observations from a re-analysis of the deposited data

How the results depend on the processing

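Under a limit of an absolute log2 ratio of at least 1, the share of members that were lower went from 82.1% to 37.5% (3 of 8), in the KRAB class from 90% to 0% (0 of 1) and in the other class from 80% to 40% (2 of 5), since nearly all lower members differed by less than 2-fold. Among members with an unadjusted p below 0.01 the share was 80% (4 of 5), and in the other class 100% (4 of 4). The median log2 ratio of -0.61 was -0.58 with a pseudocount of 1 and -0.60 with a pseudocount of 0.5 on the means. A minimum of 1 on the larger of the group means removed no member. It leaves in 3 members whose control mean is below 1 (Zfp612, Zfhx2 and Zfp3), so it does not address their low signal. Without the Zc3h and Zmiz symbols 80.8% were lower. With classes read from the symbol alone, 85.2% of 27 in the other class were lower. That class then holds every member but Zbtb7c, so it is no check on the KRAB and SCAN classes. Chosen after the data were seen, leaving out Zfyve26 and Zfp783 gave 80.8%, and leaving out members with at least 20% of shared stretches gave 84% of 25. No member passed an FDR of 0.05 or 0.1. No paired analysis was possible because only group means were at hand. No library could be left out, and other normalizations and count models (edgeR, DESeq2) were not run. Whether 1 library decides any mean is not known.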
